A study of Mus musculus with 6 samples.

Results

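Expression of 35 genes of cholesterol and fatty acid synthesis was examined in the mouse mammary carcinoma line 4T1, which arose in a BALB/c mouse. The set was a fixed list of 18 genes of sterol synthesis and transport, 5 genes of the SREBP system that regulates both branches, and 12 genes of fatty acid synthesis and desaturation. Total RNA of 6 cultures had been hybridised to Illumina MouseWG-6 bead arrays. In the group 4T1-SC, 3 cultures carried a scrambled control vector. In the group labelled 4T1-MMP3lo, 3 cultures carried an shRNA against Mmp3, a secreted protease that degrades extracellular matrix. All cultures shared the parental line, stable lipid-based transfection and growth in RPMI-based medium with a selection antibiotic. All were sampled in vitro, so no host tissue was present. The titles carry the tag NC for 4T1-SC and Cl1 for 4T1-MMP3lo, and 3 date suffixes, each given to 1 culture of either group; replicates are numbered here by the order of these suffixes, and whether the suffix marks a culture, extraction or array date is not stated. For a probe to count as measured, its detection p-value had to be under 0.05 on at least 3 of the 6 arrays, and the brightest such probe stood for its gene. In all, 30 of the 35 genes were measured, among 9344 genes tested: 15 of the sterol list, all 5 regulators and 10 of the fatty acid list. No probe is paired with Acat2, Hmgcs1 or Fdft1 in the annotation used, and these were not analysed here. The probe for Fasn (fatty acid synthase) was detected on 1 array and that for Acaca (acetyl-CoA carboxylase) on 0, so both were left out. Of the 30 measured genes, 27 were detected on all 6 arrays.

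Cholesterol is built from acetyl-CoA through mevalonate, isoprenoid and squalene intermediates to lanosterol, which is then demethylated, reduced and isomerised. Fatty acids are built from the same acetyl-CoA, then elongated and desaturated. When membrane sterol is low, Scap escorts the SREBP proteins (encoded by Srebf1 and Srebf2) from the endoplasmic reticulum to the Golgi, where they are cut to release transcription factors that switch on both branches; Insig1 and Insig2 hold Scap back when sterol is plentiful. SREBP is known to bind sterol regulatory elements together with NF-Y, which reads the CCAAT box.

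Promoter windows are shown because shared upstream letters are what the textbook account of joint regulation rests on. RefSeq windows (build GRCm38.p6, 250 bases before to 50 after the annotated start) were found for 28 of the 35 genes. CCAAT, searched on both strands, stood in a window of 23 of the 28, against 41.1% of 27025 genes with a window. Within the lists it stood in 13 of 14 sterol genes, 4 of 5 regulators and 6 of 9 fatty acid genes. Some genes had several windows and counted where any of them held the letters. Pmvk, Me1 and Insig2, among others, also had a window without CCAAT. Of all 32851 windows, 37.4% held CCAAT. The sterol regulatory element letters TCACNCCAC, searched on both strands, stood in 1 of the 28, Hmgcs1, against 1.44% of all genes. The E-box letters CACGTG, which read the same on both strands, stood in 6 of the 28 (Hsd17b7, Sc5d, Dhcr7, Insig1, Scap and Elovl5), against 8.09% of all genes. These motifs share no overlapping letters in the windows printed, and a match describes letters only. The windows of Cyp51 and Tm7sf2, neighbouring steps of the sterol branch whose values lay on opposite sides between the groups, and that of Hmgcs1 follow, each in the direction of its gene, with CCAAT (or its reverse complement ATTGG) and the sterol regulatory element letters in capitals. Cyp51 lies at chr5:4104648-4104947 (minus strand), Tm7sf2 at chr19:6067801-6068100 (minus strand) and Hmgcs1 at chr13:119690101-119690400 (plus strand).
Cyp51: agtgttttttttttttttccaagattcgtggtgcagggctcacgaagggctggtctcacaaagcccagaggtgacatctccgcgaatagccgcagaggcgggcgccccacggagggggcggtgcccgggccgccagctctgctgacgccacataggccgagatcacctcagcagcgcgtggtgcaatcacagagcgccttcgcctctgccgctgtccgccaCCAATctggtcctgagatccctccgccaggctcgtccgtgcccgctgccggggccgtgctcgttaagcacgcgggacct
Tm7sf2: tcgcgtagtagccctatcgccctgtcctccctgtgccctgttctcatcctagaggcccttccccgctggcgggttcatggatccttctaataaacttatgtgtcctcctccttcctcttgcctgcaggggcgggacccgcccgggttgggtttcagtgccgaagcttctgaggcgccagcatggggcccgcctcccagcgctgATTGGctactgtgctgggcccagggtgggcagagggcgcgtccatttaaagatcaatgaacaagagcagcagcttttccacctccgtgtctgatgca
Hmgcs1: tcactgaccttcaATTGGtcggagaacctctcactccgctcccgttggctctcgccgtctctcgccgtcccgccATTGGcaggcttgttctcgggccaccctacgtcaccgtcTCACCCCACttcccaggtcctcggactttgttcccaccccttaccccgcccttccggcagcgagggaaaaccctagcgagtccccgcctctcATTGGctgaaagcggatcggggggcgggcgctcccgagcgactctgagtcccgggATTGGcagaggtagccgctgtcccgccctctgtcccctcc

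The targeted gene was examined first. Mmp3 read 11.52, 12.98 and 13.04 on the 4T1-SC arrays and 10.64, 13.40 and 13.33 on the arrays labelled 4T1-MMP3lo (normalised log2 intensity, replicates 1 to 3). The groups overlapped, and the difference was -0.06 on the log2 scale (SE 0.74; limma, adjusted p = 0.99). At replicate 1 the array labelled 4T1-MMP3lo was 0.88 below its partner (log2 difference -0.88), whereas at replicates 2 and 3 it was 0.42 and 0.29 above. Accordingly, the second group is called by its label throughout. Of the mammary epithelial markers, Krt8, Krt18, Krt7, Krt19, Cdh1 and Elf3 were measured, while the probe for Epcam was detected on 0 arrays. The linear level summed over the 7 epithelial markers with a probe, Epcam included, ranged from 14665 to 20190 in 4T1-SC. In the other group it ranged from 13255 to 15270. Of the markers with a probe, 0 of 7 for adipocytes, 2 of 5 for leukocytes (Cd3e and Csf1r), 1 of 6 for endothelial cells (Kdr) and 1 of 7 for fibroblasts (Pdgfra) were measured. The summed fibroblast level took in all 7 markers with a probe, 3 of them detected on 0 arrays. It ranged from 243 to 442 in 4T1-SC and from 373 to 630 in the arrays labelled 4T1-MMP3lo. Its part in the results below was not tested.

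To ask whether the lipid synthesis genes differed between the groups, limma was fitted over all 9344 genes. Among the 30 measured genes, 0 passed an adjusted p of 0.05, whereas 102 genes (1.09%) passed among all genes, 56 rising and 46 falling. At an unadjusted p under 0.05 there were 8 of the 30 (26.7%), 4 in either direction, against 12.2% of all genes. By the methods' t-test on the same values, 0 of all genes passed an adjusted p of 0.05. All 3 arrays labelled 4T1-MMP3lo lay below all 3 4T1-SC arrays for 6 of the 30 (20.0%), namely Dhcr7, Cyp51, Pmvk, Fdps, Sqle and Scd2, against 8.06% of all genes. For Fdps and Sqle this held on the brightest probe only. A second probe of either gene, detected on all 6 arrays, gave differences of -0.08 and -0.06 with overlapping groups. Conversely, the brightest probes of Nsdhl, Elovl1 and Lss overlapped, while other kept probes did not. Every other kept probe of Nsdhl and another of Elovl1 lay below without overlap. A dim second probe of Lss lay above. Under median shift the count of 6 fell to 3 of the 30, and the share of all genes under that setting is not given here. The arrays labelled 4T1-MMP3lo lay above all 4T1-SC arrays for 4 of the 30 (13.3%), namely Scd1, Tm7sf2, Ebp and Acss2, against 9.62%. With the replicate number as a block, 194 of all genes passed, and again 0 of the 30.

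**Figure D1:**
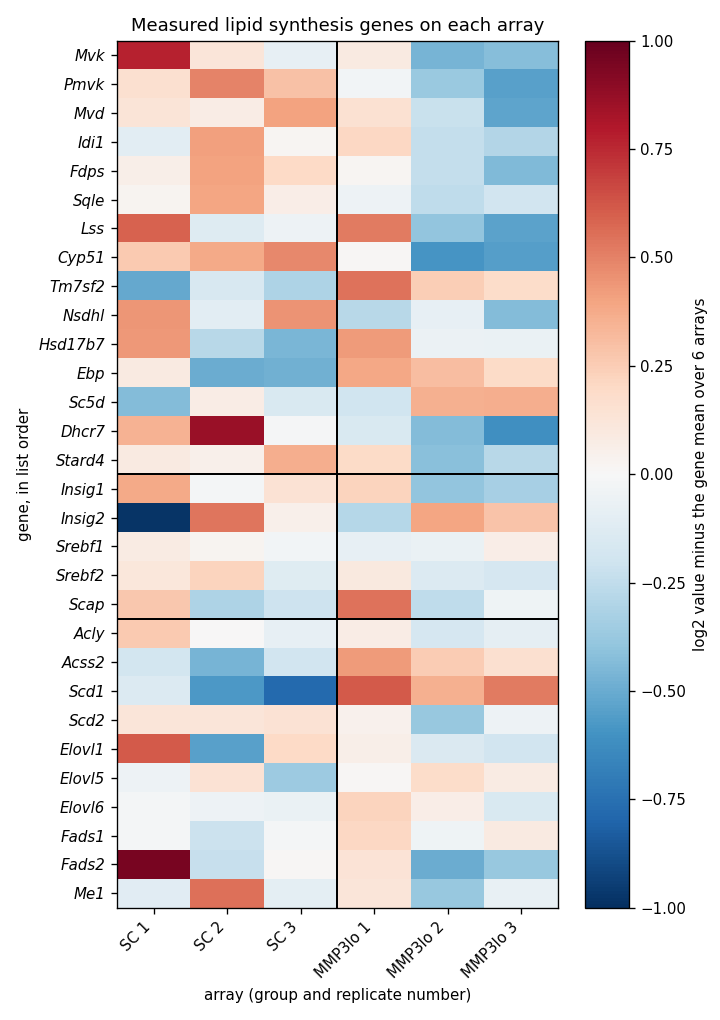
Each row is 1 of the 30 measured genes and each column 1 array; colour gives the normalised log2 value minus that gene's mean over the 6 arrays, and horizontal lines part the sterol, regulator and fatty acid lists. Most sterol genes are blue on the arrays labelled MMP3lo 2 and 3, while Tm7sf2, Ebp, Sc5d and, in the fatty acid list, Scd1 and Acss2 are not.

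In the sterol branch, 11 of 15 estimates were below 0 and the median difference was -0.34 on the log2 scale, beside 0.02 over all genes tested. Among the 11, Mvk and Idi1 met the detection rule through 4T1-SC, being detected on 1 array of the other group. With detection required on all 6 arrays, which also left out Tm7sf2, the median was -0.37. The mammary epithelial markers lay on the same side, with 6 of 6 estimates below 0 and a median of -0.38, and their part in the sterol values was not tested. As single arrays were left out, the sterol median ranged from -0.52 (without replicate 1 of the arrays labelled 4T1-MMP3lo) to -0.28. Dhcr7, the reductase of the last step, had the largest difference of the list. It read 7.66, 8.18 and 7.30 in 4T1-SC against 7.16, 6.88 and 6.70 in the arrays labelled 4T1-MMP3lo. The groups did not overlap, and the difference was -0.80 (SE 0.26; 95% interval -1.39 to -0.20; adjusted p = 0.249). Cyp51, the demethylase that acts on lanosterol, read 9.78, 9.90 and 10.00 in 4T1-SC and 9.53, 8.94 and 8.97 in the other group. Its 4T1-SC arrays lay within a narrow range, and replicate 1 was the highest of the arrays labelled 4T1-MMP3lo. The difference was -0.75 (SE 0.21; 95% interval -1.24 to -0.26; adjusted p = 0.181). Pmvk, the phosphomevalonate kinase, read 7.32, 7.66 and 7.46 against 7.14, 6.79 and 6.63, a difference of -0.63 (SE 0.21; 95% interval -1.10 to -0.16; adjusted p = 0.252). With the background left uncorrected, Dhcr7 differed by -0.52 and Pmvk by -0.39.

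Among the other genes of the branch with lower values in the arrays labelled 4T1-MMP3lo were Mvk and Mvd (the mevalonate kinase and decarboxylase). Nsdhl (a sterol dehydrogenase), Fdps (farnesyl diphosphate synthase) and Stard4 (a sterol carrier) were others. So were Sqle (squalene epoxidase), Lss (lanosterol synthase) and Idi1 (isopentenyl diphosphate isomerase). The differences of all these genes ran from -0.54 for Mvk to -0.21 for Idi1, with limma adjusted p from 0.381 for Nsdhl to 0.808 for Lss. Of these, Nsdhl was measured by 4 probes, which gave differences of -0.54, -0.53, -0.45 and -0.57. In all, 10 of the 30 genes had several kept probes, and 1 of these, Lss, had probes of both signs: its bright probe gave -0.27 and a dim probe, detected on 0 of the 4T1-SC arrays, gave 0.26. Mvk and Idi1 were each detected on all 3 4T1-SC arrays but on 1 of the 3 arrays labelled 4T1-MMP3lo, so their lower values there lie close to background.

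Tm7sf2, Ebp, Sc5d and Hsd17b7 made up the 4 sterol genes with estimates above 0. Tm7sf2, a sterol reductase, read 4.64, 5.00 and 4.85 in 4T1-SC against 5.70, 5.40 and 5.34 in the arrays labelled 4T1-MMP3lo. It was detected on 2 of the 3 4T1-SC arrays and on all 3 of the others. The groups did not overlap, and the difference was 0.65 (SE 0.19; 95% interval 0.21 to 1.09; adjusted p = 0.199). For this probe close to background the difference was 0.20 with the background left uncorrected or with the deposited log2 table, and 0.33 with an offset of 50. Ebp, the sterol isomerase, stood 0.59 higher (SE 0.21; 95% interval 0.10 to 1.08; adjusted p = 0.313), and Sc5d, a sterol desaturase, 0.34 higher (adjusted p = 0.625). Thus genes of late steps, Ebp and Dhcr7 among them, had estimates on opposite sides of 0.

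**Figure D2:**
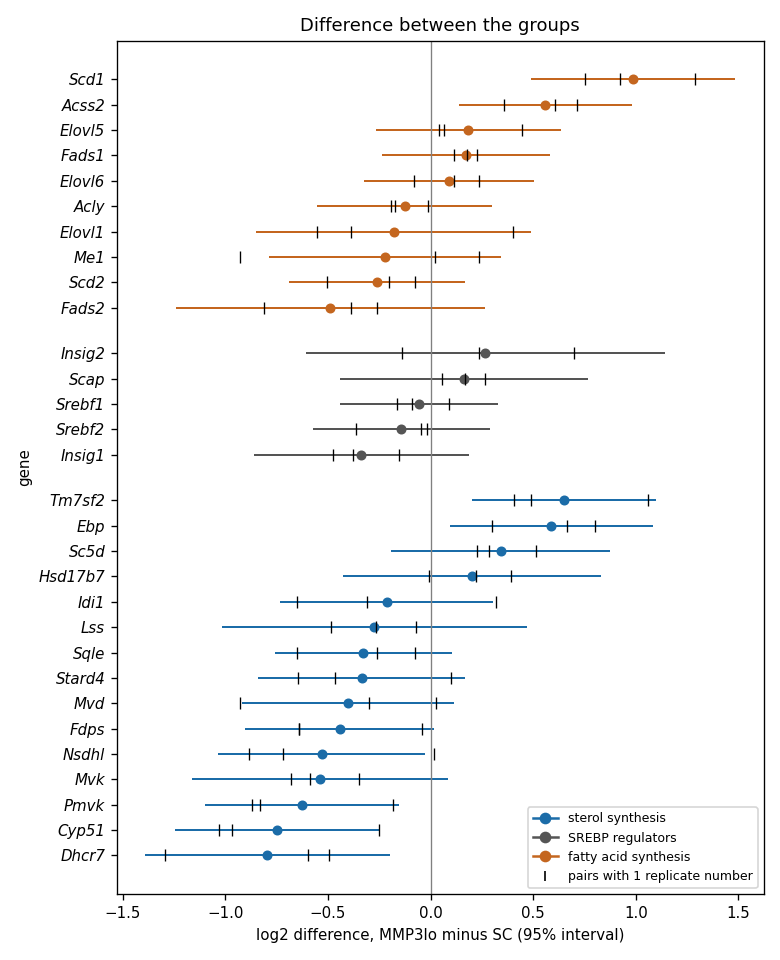
Points give each gene's log2 difference (arrays labelled MMP3lo minus SC) with its 95% interval from limma, coloured by list, and black ticks give the 3 differences between arrays that share a replicate number. The intervals of Dhcr7, Cyp51, Pmvk, Nsdhl, Tm7sf2, Ebp, Scd1 and Acss2 leave out 0, before any adjustment over the genes tested.

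The fatty acid branch was evenly divided, with 5 of 10 estimates below 0, a median of -0.02 and all-gene median of 0.02; the difference between the branch medians was not tested. Scd1, the stearoyl-CoA desaturase that makes monounsaturated fatty acids, had the largest difference of all 30 genes. It read 8.21, 7.77 and 7.57 in 4T1-SC against 8.96, 8.70 and 8.86 in the arrays labelled 4T1-MMP3lo. Every array of the second group lay above every 4T1-SC array, by 0.75, 0.93 and 1.29 within the pairs. The mean of 7.85 ± 0.33 (SD, n = 3) in 4T1-SC stood against 8.84 ± 0.13 (SD, n = 3), a 1.98-fold difference (log2 0.99, SE 0.21, 95% interval 0.50 to 1.48) with an adjusted p of 0.0833. Its adjusted p was 0.0529 with the replicate block and 0.279 by the methods' t-test. Without 4T1-SC replicate 1 it was 0.00528, in a fit where 10.7% of all genes passed. Without any other single array it lay from 0.208 to 0.389. Scd2, a desaturase of the same family, lay on the other side. It read 8.98, 8.98 and 9.01 against 8.90, 8.48 and 8.81 (difference -0.26, SE 0.18, 95% interval -0.68 to 0.16, adjusted p = 0.646).

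Acss2, which makes acetyl-CoA from acetate, read 8.30, 8.02 and 8.29 in 4T1-SC against 8.91, 8.74 and 8.65 in the arrays labelled 4T1-MMP3lo. The groups did not overlap, and the difference was 0.56 (SE 0.18; 95% interval 0.14 to 0.98; adjusted p = 0.25). A second Acss2 probe, dimmer, gave 0.33. Fads2, the first desaturase of the polyunsaturated route, read 9.20, 8.02 and 8.26 against 8.39, 7.76 and 7.87. Here the groups overlapped, 4T1-SC spreading the more widely, and the difference was -0.49 (SE 0.33; 95% interval -1.24 to 0.26; adjusted p = 0.623). Without 4T1-SC replicate 1 it was -0.14. The remaining 6 genes of the branch, Acly (ATP citrate lyase, the source of cytosolic acetyl-CoA), the elongases Elovl1, Elovl5 and Elovl6, the desaturase Fads1 and Me1 (malic enzyme, a source of NADPH), had differences from -0.22 for Me1 to 0.18 for Elovl5, with adjusted p from 0.769 to 0.902. Their 95% intervals were wide, for instance -0.85 to 0.48 for Elovl1 and -0.78 to 0.34 for Me1. Elovl1 was read by 4 probes with differences from -0.47 to -0.17, and the estimate of its brightest probe lay between -0.50 and 0.08 as single arrays were left out.

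**Figure D3:**
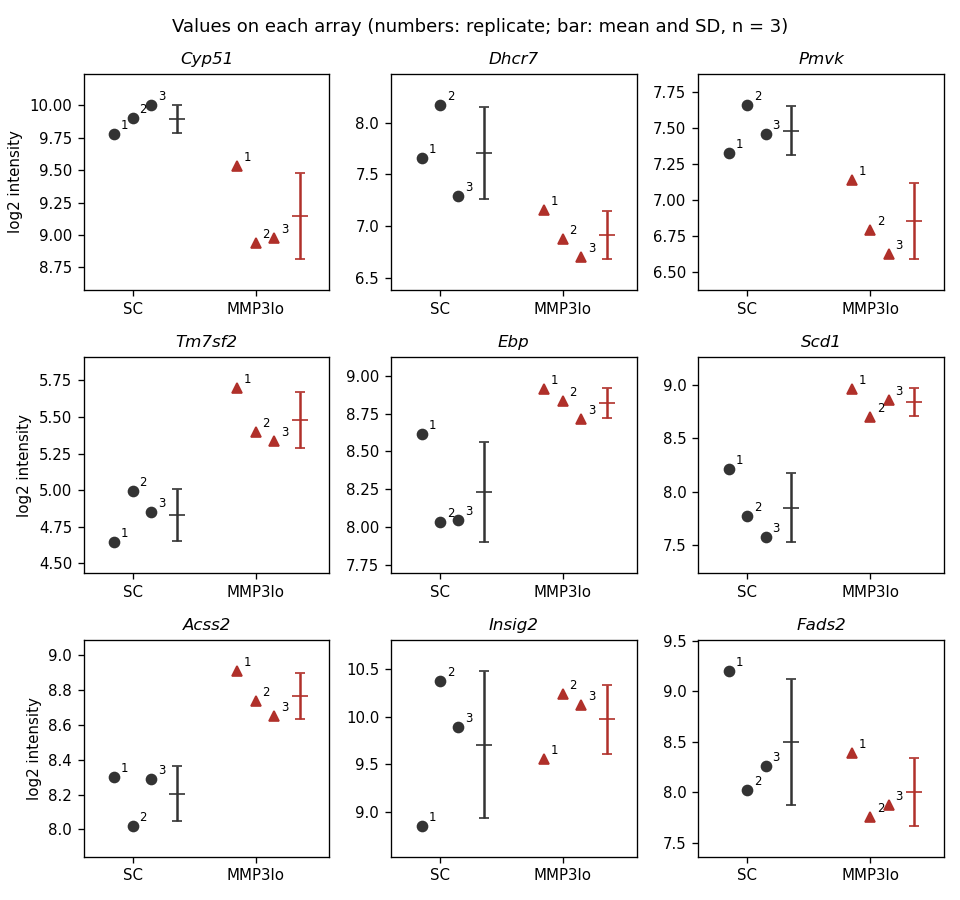
Normalised log2 intensity on each array for 9 genes, with replicate numbers beside the points and a bar for the mean and SD of each group of 3; the axes differ between genes and do not start at 0. Cyp51, Dhcr7 and Pmvk lie lower and Tm7sf2, Ebp, Scd1 and Acss2 higher on the arrays labelled MMP3lo, whereas the groups overlap for Insig2 and Fads2.

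For the regulators, 0 of 5 passed at an unadjusted p under 0.05 between the groups and the median difference was -0.06. Insig1 read 8.97, 8.58 and 8.74 in 4T1-SC against 8.82, 8.20 and 8.27 in the arrays labelled 4T1-MMP3lo (difference -0.34, SE 0.23, adjusted p = 0.623). All 3 of its kept probes gave a value below 0. Insig2 read 8.85, 10.37 and 9.89 against 9.55, 10.23 and 10.12 (difference 0.27, SE 0.38, adjusted p = 0.853). In both groups replicate 1 was the lowest array of Insig2. Scap read 7.88, 7.30 and 7.39 against 8.15, 7.35 and 7.56 (difference 0.16, SE 0.26, adjusted p = 0.875), with replicate 1 highest in both groups. Srebf2 read 8.07, 8.18 and 7.84 against 8.05, 7.82 and 7.79 (difference -0.14, SE 0.19, adjusted p = 0.837). Srebf1 had the smallest difference of the 5, -0.06 (95% interval -0.44 to 0.33; adjusted p = 0.945).

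The number of calls moved with the arrays that entered the fit. Without 4T1-SC replicate 1, 2 of the 30 genes passed (6.67%), Ebp (adjusted p = 0.025) and Scd1, while 10.7% of all genes did. With the 4 arrays of replicates 2 and 3 alone, 4 of the 30 passed (13.3%): Cyp51 (log2 difference -0.999, adjusted p = 0.012) and Pmvk (-0.85, adjusted p = 0.0272) were lower, and Ebp (0.73, adjusted p = 0.0345) and Scd1 (1.11, adjusted p = 0.0107) higher, against 10.8% of all genes. With array weights estimated from the data, 14 of the 30 passed (46.7%), 6 higher and 8 lower, against 33.3% of all genes. These weights ran from 0.175 for 4T1-SC replicate 1 to 5.04 for replicate 3 of the arrays labelled 4T1-MMP3lo.

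The date suffixes were compared next, with the group as a term in the fit. By the F test over the 3 dates, 0 of the 30 genes passed, with 0.171% of all genes passing; at an unadjusted p under 0.05 there were 6 of the 30 (20.0%), against 13.4%. Replicate 1 against the mean of replicates 2 and 3 gave 0 of the 30, against 0.482% of all genes, with 8 of the 30 at an unadjusted p under 0.05 (26.7%), against 21.8%. Replicate 1 against 2, replicate 1 against 3 and replicate 2 against 3 gave 0 of the 30 as well, with 0.203%, 0.182% and 0.0% of all genes. Both replicate 1 arrays lay above the other 4 for 6 of the 30 (20.0%), namely Lss, Hsd17b7, Insig1, Scap, Acly and Fads2, against 18.7% of all genes. They lay below for Insig2 and Sc5d (6.67%), against 14.9%.

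Lss, which closes squalene epoxide into lanosterol, had the largest replicate 1 difference of the sterol list. It read 9.41, 8.69 and 8.77 in 4T1-SC against 9.34, 8.43 and 8.28 in the second group, with replicate 1 the highest array of each. The difference of replicate 1 from the mean of the others was 0.83 (SE 0.19; 95% interval 0.38 to 1.28; adjusted p = 0.0998). The mean of all kept probes of Lss gave 0.38. Mvk read 5.91, 5.26 and 5.06 against 5.22, 4.67 and 4.71 (replicate 1 difference 0.64, SE 0.19, adjusted p = 0.138). With the background left uncorrected or with the deposited log2 table this dim gene gave 0.21, and with an offset of 50 it gave 0.34. Hsd17b7, a sterol reductase, read 9.97, 9.26 and 9.09 against 9.97, 9.48 and 9.48 (replicate 1 difference 0.64, SE 0.19, adjusted p = 0.138). Sc5d ran the other way. It read 6.58, 7.08 and 6.85 against 6.80, 7.36 and 7.37, with a replicate 1 difference of -0.48 (SE 0.18; adjusted p = 0.205), or -0.28 with the background left uncorrected.

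Of the regulators, Insig2 had a replicate 1 difference of -0.95 (SE 0.23; 95% interval -1.48 to -0.42; adjusted p = 0.104). Scap stood at 0.61 (SE 0.18; adjusted p = 0.14), Insig1 at 0.45 (SE 0.19; adjusted p = 0.223) and Srebf2 at 0.16 (adjusted p = 0.662). The 2 Insig genes, which act on the same partner, thus had estimates on opposite sides of 0. In the fatty acid branch the replicate 1 difference was 0.81 for Fads2 (SE 0.20; 95% interval 0.34 to 1.29; adjusted p = 0.109), 0.51 for Elovl1 (adjusted p = 0.276), 0.36 for Scd1 (adjusted p = 0.329) and 0.25 for Acly (adjusted p = 0.445). Elovl1 read 9.99, 8.83 and 9.57 in 4T1-SC against 9.43, 9.23 and 9.18, so its spread lay mostly in 4T1-SC. Acly read 12.46, 12.20 and 12.11 against 12.27, 12.02 and 12.10. Without replicate 1 of the arrays labelled 4T1-MMP3lo, Insig2 (-1.28, adjusted p = 0.0289) and Fads2 (1.06, adjusted p = 0.0383) passed, 6.67% of the 30, against 11.1% of all genes in that fit.

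The replicate 1 median was 0.15 over the sterol genes and 0.17 over the fatty acid genes, beside 0.02 over all genes tested. The sterol value did not hold in both groups: the median of replicate 1 minus the mean of replicates 2 and 3 was -0.12 within 4T1-SC and 0.43 within the arrays labelled 4T1-MMP3lo, against 0.12 and 0.22 for the fatty acid genes and 0.03 and 0.02 for all genes. Correspondingly, the median sterol difference between arrays of the same replicate number was -0.04 at replicate 1, -0.46 at replicate 2 and -0.48 at replicate 3, beside 0.01, 0.03 and 0.01 over all genes. The 6 mammary epithelial markers had a like pattern, with pair medians of -0.01, -0.43 and -0.64, and a median of replicate 1 minus the others of -0.47 within 4T1-SC and 0.14 within the second group. The fatty acid values were 0.15, 0.08 and 0.01. For 8 of the 30 genes (26.7%), Pmvk, Idi1, Fdps, Sqle, Cyp51, Tm7sf2, Scd2 and Me1, replicate 1 was the lowest 4T1-SC array and the highest of those labelled 4T1-MMP3lo, against 10.3% of all genes. The reverse held for Srebf1 alone (3.33%), against 9.79%. A fit with group by replicate 1 as an interaction term, in which replicates 2 and 3 serve as replicates of each other, leaves 2 residual degrees of freedom and was added after seeing the data. In it 0 of the 30 passed, against 0.878% of all genes, and 2 of the 30 (6.67%) had an unadjusted p under 0.05, Cyp51 and Idi1, against 16.3%. The replicate 1 change of Cyp51 was 0.75 higher in the second group (SE 0.28; 95% interval 0.08 to 1.41; adjusted p = 0.263) and that of Idi1 0.80 higher (SE 0.33; 95% interval 0.01 to 1.59; adjusted p = 0.301). Without 4T1-SC replicate 3, Idi1 and Elovl1 passed (6.67% of the 30), against 13.4% of all genes.

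**Figure D4:**
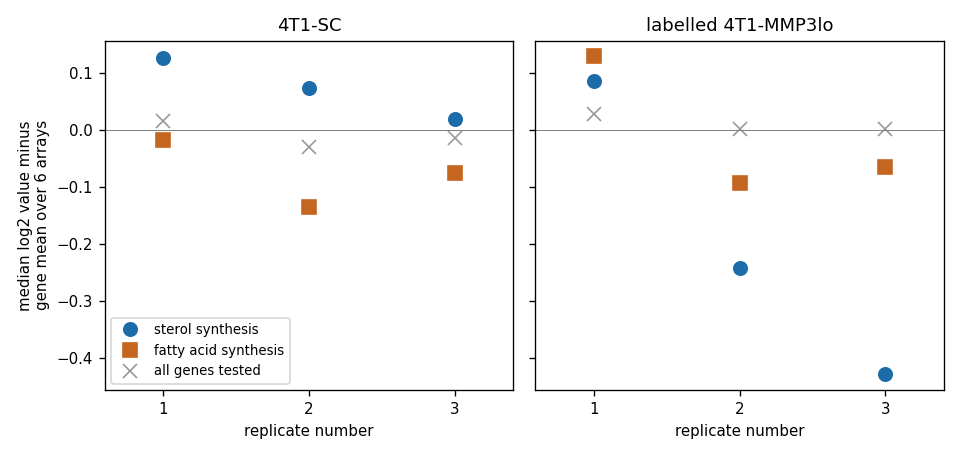
Points give, for each array, the median over a list of the log2 value minus the gene's mean over the 6 arrays, for the 15 sterol genes, the 10 fatty acid genes and all 9344 genes tested. The sterol median is 0.13, 0.07 and 0.02 on the 4T1-SC arrays and 0.09, -0.24 and -0.43 on the arrays labelled 4T1-MMP3lo, while the median of all genes stays near 0.

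**Figure D5:**
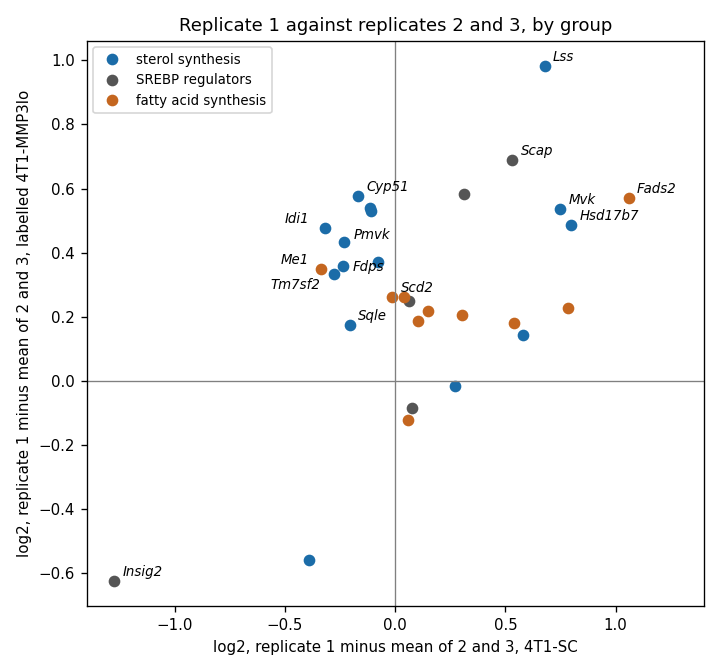
Each point is 1 measured gene, placed by its log2 value at replicate 1 minus the mean of replicates 2 and 3 in 4T1-SC (horizontal) and in the arrays labelled 4T1-MMP3lo (vertical). Genes at the upper left, Cyp51 and Idi1 among them, were lower at replicate 1 in 4T1-SC and higher at replicate 1 in the other group, and Insig2 is the farthest point at the lower left.

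Neighbouring pathways were given by lists outside the 35 genes. Of the 10 measured genes of further sterol synthesis and uptake, 0 passed in either direction between the groups or between dates. Between the groups, 9 of these estimates were below 0 and 1, that of Npc1, above. Their median was -0.17, beside 0.02 over all genes tested. Npc1, which moves cholesterol out of lysosomes, read 8.34, 7.71 and 8.35 in 4T1-SC against 8.70, 8.90 and 9.16 in the arrays labelled 4T1-MMP3lo (difference 0.79, SE 0.24, adjusted p = 0.203), without overlap. Msmo1, a methylsterol oxidase of the sterol branch, read 8.30, 9.11 and 8.16 against 8.20, 7.95 and 8.24 and differed by -0.39 (adjusted p = 0.631). None of the 2 measured genes of LXR signalling and sterol export passed: Nr1h3, the LXR alpha receptor, read 4.57, 4.56 and 4.91 against 4.68, 5.00 and 4.98, close to background, and differed by 0.21 (adjusted p = 0.744). Lpcat3, a phospholipid remodelling enzyme, read 9.90, 9.50 and 9.85 against 9.81, 9.90 and 9.77 and differed by 0.08 (adjusted p = 0.924).

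Among 19 measured genes of other fatty acid and triglyceride synthesis, 0 passed. Acsl4, which activates polyunsaturated fatty acids, read 7.98, 9.13 and 9.03 against 7.44, 8.34 and 8.44 and differed by -0.64 (adjusted p = 0.562), with both replicate 1 arrays below the other 4. Hacd2, a dehydratase of fatty acid elongation, read 5.49, 5.42 and 5.05 against 4.60, 4.71 and 4.90, a difference of -0.58 (adjusted p = 0.273). Hacd2 was detected on all 3 4T1-SC arrays but on 1 of the 3 arrays labelled 4T1-MMP3lo, where its values lay close to background. Of 12 measured genes of fatty acid oxidation, 0 passed. Acadl, the long-chain acyl-CoA dehydrogenase, read 8.26, 10.10 and 9.44 against 8.16, 8.81 and 8.40 and differed by -0.81 (adjusted p = 0.519). Etfb, an electron carrier, read 9.34, 9.11 and 9.43 against 9.54, 9.80 and 9.63 and differed by 0.37 (adjusted p = 0.483). The replicate 1 median of the oxidation genes was -0.31, beside 0.15 and 0.17 for the 2 synthesis branches; 5 of the 12 had both replicate 1 arrays below the other 4, against 14.9% of all genes.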

How the data were processed

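The authors deposited a linear intensity for every probe on each of 6 Illumina MouseWG-6 arrays, with a detection p-value beside it, and, separately, a table of normalized log2 values; the software behind them is not given in the sources used here. From the deposited intensities, limma 3.58.1 (R 4.3.3) gave log2 values after normexp background correction and quantile normalization (neqc, offset 16). Probes with a detection p-value under 0.05 on 3 or more arrays were kept (16969 of 45281; 14759 named 1 gene), and the probe with the highest mean stood for each of 9344 genes. Probes were named through the platform annotation given with the value table, with symbols updated through RefSeq (GRCm38.p6); 34885 probes had 1 symbol, 18 several and 10378 none. The number of arrays limits the precision.

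Groups came from the labels, and the design text calls the cultures biological triplicates. The study speaks of each group as a single stably transfected population. The p-values thus rest on the spread between cultures, not between separate transfections. Other differences between the populations cannot be told apart from an effect of the hairpin. lmFit and eBayes compared the groups without a block, since the study's methods use an unpaired test; dates were tested with the group as a term. P-values were adjusted by Benjamini-Hochberg over all 9344 genes, at 0.05. Titles give each date suffix to 1 culture of either group, and this shared suffix is why the replicate numbers are taken to pair the samples. Deviations from the group means correlated across genes at 0.44, 0.21 and 0.28 for replicates 1, 2 and 3, but also at 0.31 and 0.23 between replicate 2 of one group and replicate 3 of the other, so the values set replicate 1 apart and do not separate 2 from 3. Alternatives were log2 intensities without correction of the background, the deposited log2 table, median shift, an offset of 50, the mean of all probes, no detection filter, detection on all 6 arrays, each array left out, the replicate block, array weights, the methods' t-test and dates without the group term. Replicates 2 and 3 alone, the interaction of group and replicate 1, and every count of groups without overlap, were added after seeing the data. Values on every array are given for the 4 genes of each list with the largest difference between groups and the 4 with the largest difference of replicate 1 from the others; of the neighbouring lists, this holds for the 2 genes with the largest group difference. Other genes were chosen after their values were seen. The 35 genes, the lists and the contrast of replicate 1 were chosen with earlier results of these data known. The fits were tested on simulated data.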

Additional observations from a re-analysis of the deposited data

Results flagged for a closer look

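For 9 of the 30 measured genes, replicate 1 lay outside the range of replicates 2 and 3 in both groups but on opposite sides. In 8 of them (26.7% of the 30, against 10.3% of all genes tested), replicate 1 was the lowest array of 4T1-SC and the highest of those labelled 4T1-MMP3lo, and in 1, Srebf1 (3.33%, against 9.79%), the reverse held. In the fit with group by replicate 1 as an interaction term, 0 of these 9 passed, with adjusted p from 0.263 for Cyp51 to 0.808. Replicate 1 minus the mean of replicates 2 and 3, on the log2 scale in 4T1-SC and then in the arrays labelled 4T1-MMP3lo, was -0.17 and 0.58 for Cyp51, -0.32 and 0.48 for Idi1, and -0.23 and 0.43 for Pmvk. It was -0.24 and 0.36 for Fdps, -0.28 and 0.33 for Tm7sf2, and -0.21 and 0.17 for Sqle. Outside the sterol list it was -0.34 and 0.35 for Me1, -0.0144 and 0.26 for Scd2, and 0.078 and -0.0846 for Srebf1. Idi1 and Tm7sf2 were not detected on every array, and their values lay close to background.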

How the results depend on the processing

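Between the groups, 0 of the 30 genes passed in the fit as reported and in every alternative except 3: without 4T1-SC replicate 1 (a range of 0 to 2 as single arrays were left out), array weights (14), and replicates 2 and 3 alone (4). The replicate block changed no call among the 30 (0 passed) and moved the count over all genes from 102 to 194. That count was 12 with the background left uncorrected and likewise with the deposited log2 table, 38 with an offset of 50, 30 without a detection filter, 50 with detection on all 6 arrays, 3107 with array weights, 1012 with replicates 2 and 3 alone and 0 by the methods' t-test; as single arrays were left out it ranged from 0 to 1001. By the F test between dates 0 of the 30 passed in all alternatives run. For the interaction of group and replicate 1 the count was 0, with a range of 0 to 2 as arrays of replicates 2 and 3 were left out; it could not be fitted without a replicate 1 array. The sterol median between groups stayed below 0 throughout, from -0.52 to -0.25. The fatty acid median ranged from -0.0951 to 0.0929 as single arrays were left out. The replicate 1 median of the sterol genes ranged from -0.12 (without replicate 1 of the arrays labelled 4T1-MMP3lo) to 0.43 (without 4T1-SC replicate 1), and that of the fatty acid genes from 0.11 to 0.24. Genes with the arrays labelled 4T1-MMP3lo below all others numbered 3 under median shift, against 6 in the fit as reported. The share of all genes under median shift is not given here. The all-gene median difference was 0.07 under that setting, against 0.02. The sign turned for Insig2 without 4T1-SC replicate 1 (range -0.159 to 0.599 as single arrays were left out) and for Scap without replicate 1 of the other group (range -0.0655 to 0.341). The causes were not tested.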
